A study of Homo sapiens with 3 samples.

Results

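The genes examined were 10 regulators and markers of the epithelial-mesenchymal transition (EMT), out of 19869 genes in an RNA sequencing table of Hep3B, an established human hepatocellular carcinoma cell line. They were taken by symbol through their Ensembl identifiers with no filter on their values, though with earlier results of these data known. They comprise the transcription factors ZEB1, ZEB2, SNAI1, SNAI2 and TWIST1, the epithelial adhesion molecules CDH1 and EPCAM, and the mesenchymal markers CDH2, VIM and FN1. The table held 3 libraries with 1 library in each group. The control carries the words NT and Empty in its title and the transfection reagent Fugene as its treatment. The HKR3 cells received the plasmid pcDNA3.1-HKR3, which encodes the telomere-binding zinc finger protein HKR3 (ZBTB48). The last group received siTERT, a small interfering RNA against TERT, the catalytic subunit of telomerase. All groups are the same cell line and, per the labels' protocols, were transfected with Fugene HD. The nucleic acid in the control transfection, if any, and the time from transfection to RNA are not given in the labels used here.

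EMT is a change of state in which epithelial cells loosen their junctions and take on a motile, matrix-producing form. Zinc finger proteins of the SNAI and ZEB families and the basic helix-loop-helix protein TWIST1 bind E-boxes in DNA and repress epithelial genes such as CDH1, while microRNAs of the miR-200 family repress ZEB1 and ZEB2 in return. Liver carcinoma lines differ widely in how epithelial they are, and loss of CDH1 with gain of CDH2 and VIM is the usual description of a shift toward the mesenchymal end.

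The miR-200 family gives a sequence feature that sets ZEB1 and ZEB2 apart from the other genes examined, so its members are shown here. The sequences are from RefSeq (GRCh38.p14), and capitals mark the seed, bases 2 to 8, which pairs with the target. MicroRNAs themselves were not measured in these libraries. The first 3 share the seed AAUACUG and the other 2 share AACACUG.
hsa-miR-200b-3p: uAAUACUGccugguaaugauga
hsa-miR-200c-3p: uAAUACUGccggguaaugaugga
hsa-miR-429: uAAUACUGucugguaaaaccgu
hsa-miR-141-3p: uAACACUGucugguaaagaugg
hsa-miR-200a-3p: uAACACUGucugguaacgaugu

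The 3′ UTR of the longest coding transcript of each gene (GENCODE release 29, GRCh38) was searched for the 7 bases complementary to each seed, CAGTATT and CAGTGTT. ZEB1 held 9 matches in 2549 bases, 6 to the first seed and 3 to the second. ZEB2 held 9 matches in 5370 bases, 5 and 4 in the same order. As many as 9 matches were found in 6 of 18724 genes with a 3′ UTR, ZEB1 and ZEB2 included, and at least 1 match in 28.3% of them. A longer 3′ UTR has more chances of a match. FN1 held 2 and SNAI2 held 1, and SNAI1, TWIST1, CDH1, CDH2, VIM and EPCAM held 0. The sites nearest the stop codon for each seed are shown for both genes on the strand of the transcript, with the match in capitals, since they are the part of these mRNAs that the seeds above would pair with.
ZEB1, first seed, chr10:31527618-31527640, plus strand: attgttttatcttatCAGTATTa
ZEB1, second seed, chr10:31528031-31528053, plus strand: caaaatcatcagaatCAGTGTTt
ZEB2, first seed, chr2:144389052-144389074, minus strand: cgcactaccatacatCAGTATTt
ZEB2, second seed, chr2:144389236-144389258, minus strand: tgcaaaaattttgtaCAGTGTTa

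**Figure D1:**
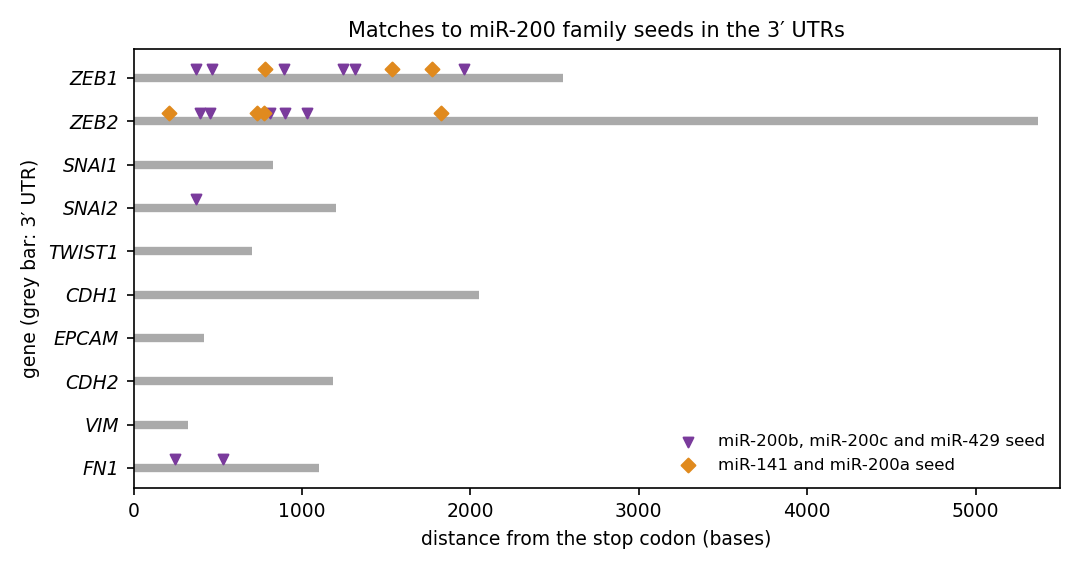
Matches to the 2 seeds of the miR-200 family along the 3′ UTR of each gene, as distance from the stop codon in bases. Grey bars are the 3′ UTRs, triangles and diamonds are the matches, and ZEB1 and ZEB2 carry 9 each while 6 of the genes carry 0.

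The E-box bound by SNAI and ZEB proteins, CACCTG or its complement CAGGTG, was searched in the 250 bases before each annotated start in RefSeq (GRCh38.p14), on both strands. Windows were matched for ZEB1, ZEB2, CDH2, VIM and FN1. It was present in 2 of 7 windows of ZEB1 and in 0 windows of the other 4 genes, against 17.5% of 35116 windows of all genes. The wider E-box CANNTG, which includes it, was present in 4 of the 7 ZEB1 windows and in 61.8% of all windows. The window before the most upstream ZEB1 start is shown because ZEB1 had the largest difference from the control among the 6 tested EMT genes. It lies at chr10:31318167-31318416 on the plus strand and overlaps exon sequence of the antisense gene ZEB1-AS1. Capitals mark the E-box, which begins 57 bases before the start. A match is a description and not a measured binding site.
ZEB1: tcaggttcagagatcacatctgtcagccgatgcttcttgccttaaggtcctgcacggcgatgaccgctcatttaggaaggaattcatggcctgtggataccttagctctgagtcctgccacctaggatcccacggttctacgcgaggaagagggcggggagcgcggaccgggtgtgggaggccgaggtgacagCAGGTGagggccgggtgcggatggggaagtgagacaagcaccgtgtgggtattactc

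Values are FPKM, fragments scaled to transcript length and to library size, so levels can be set side by side between genes within a library. Differences are given in log2(FPKM + 1) over the 10974 genes averaging 1 FPKM or more across the libraries (the tested genes), a scale that understates differences of weakly expressed genes. Each group is a single library, so no replicate spread exists, and a size rule of 2-fold, a log2 difference of 1, stands in for a test. Ratios of FPKM carry a 95% counting interval (exact binomial) from estimated fragment numbers, 1.04e+07 for the control, 1.13e+07 for HKR3 and 1.15e+07 for siTERT. These intervals compare libraries and not conditions, and cover counting error only. As a check of the labels, ZBTB48 was at 4.91, 2842 and 4.89 FPKM and TERT at 4.69, 4.25 and 5.37 FPKM in control, HKR3 and siTERT order. TERT was thus not reduced under the siTERT label, and directions taken from it belong to the label. Hepatocyte markers were high in all 3 libraries, with ALB between 2703 and 3317 FPKM. Their summed FPKM was 11740 with the control, 8339 with HKR3 and 11599 under the siTERT label. With HKR3, 9 of the 11 hepatocyte markers lay below the control (median log2 difference -0.52), AFP at 4055 and 2831 FPKM and APOA1 at 1461 and 713 FPKM. The part of this shift in the results below was not tested.

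In the HKR3 library the EMT genes that the cells expressed did not all differ from the control in 1 direction or by the same size. ZEB1 was 3.20-fold higher, SNAI1 and CDH2 were about 2-fold higher, and FN1 was 1.29-fold higher. The epithelial genes CDH1 and EPCAM were 0.816 and 0.848 times the control and stayed among the higher expressed genes. SNAI2 and TWIST1 were listed at 0 in all libraries. In the library labelled siTERT each of the 6 tested genes lay within 1.5-fold of the control, as did 97.1% of all tested genes. Of those 6 genes, 1 was at least 2-fold higher in the HKR3 library, ZEB1, and 0 were 2-fold lower. Among all tested genes 5.52% were 2-fold higher there, 2.52% lower and 8.05% either way. Under the siTERT label 0 of the 6 passed in either direction, against 0.282% of all tested genes higher, 0.2% lower and 0.483% either way. The 4 genes outside the tested set were ZEB2, SNAI2, TWIST1 and VIM.

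**Figure D2:**
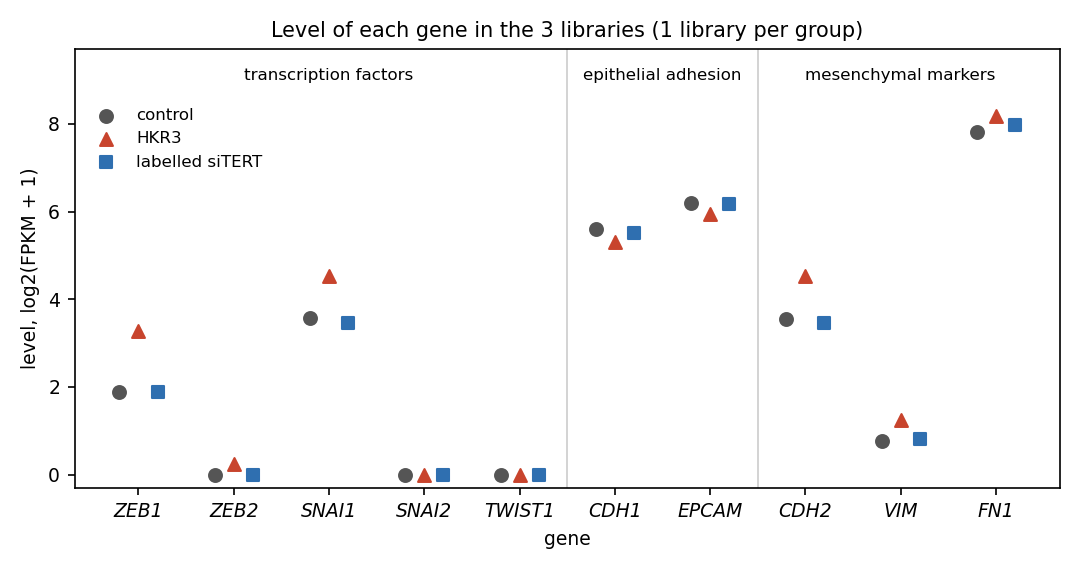
Level of each gene in log2(FPKM + 1), with 1 point per library. The HKR3 triangles stand above the other libraries for ZEB1, SNAI1 and CDH2, while CDH1 and EPCAM lie close together in all 3, and SNAI2 and TWIST1 are at 0.

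ZEB1 (ENSG00000148516, chr10:31318495-31529814, plus strand), a zinc finger and homeodomain repressor of CDH1, was at 2.72 FPKM in control cells, 8.69 FPKM with HKR3 and 2.70 FPKM under the siTERT label. The HKR3 library was the high one, and the other 2 were nearly equal. The log2 difference was 1.38 between HKR3 and control, a ratio of 3.20 with a counting interval from 2.53 to 4.09. A difference at least this high was seen in 244 of 10974 tested genes, or 2.22%, and in 102 of the 3313 genes whose mean lay within 2-fold of that of ZEB1. Under the siTERT label the log2 difference from the control was -0.01, with a ratio of 0.993 and an interval from 0.737 to 1.33. Ranked from the highest FPKM, ZEB1 was at 9436 in the control and at 6873 in the HKR3 library. With a pseudocount of 5 FPKM its log2 difference was 0.83, under the 2-fold rule. The antisense gene ZEB1-AS1 holds 3.36% of the ZEB1 transcript sequence on the opposite strand, in units of 31 bases. Gene positions here and below are GRCh38 from GENCODE release 29. The kit keeps strand, but the labels do not say that counting used it, so reads from that stretch cannot be assigned.

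ZEB2 (ENSG00000169554, chr2:144364364-144524583, minus strand), the paralog of ZEB1, was listed at 0 in the control and in the library labelled siTERT and was at 0.187 FPKM in the HKR3 library. That value corresponds to 1 fragment at the length of its shortest coding transcript and to 20 at the length of its longest. The fragment number behind it is therefore uncertain, and no fold is given against libraries listed at 0. An exact 0 in such a table can also be a failed estimate.

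SNAI1 (ENSG00000124216, chr20:49982999-49988886, plus strand), known as Snail, a zinc finger repressor with a short-lived protein, was at 10.95 FPKM in control cells, 22.1 FPKM with HKR3 and 10.0 FPKM under the siTERT label. It was the highest of the 5 transcription factors in every library, at 4.03 times the FPKM of ZEB1 in the control and 2.55 times in the HKR3 library. The HKR3 library was again the high one. The log2 difference from the control was 0.95, just under the 2-fold rule, while the plain ratio of FPKM was 2.02, with an interval from 1.71 to 2.42. Scaling all libraries to the same FPKM sum gave 1.10, over the rule. A log2 difference at least as high was seen in 6.11% of tested genes. Under the siTERT label the difference was -0.12, and the interval of the ratio, 0.745 to 1.12, included 1.

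SNAI2 (ENSG00000019549, chr8:48917604-48921740, minus strand), known as Slug, and TWIST1 (ENSG00000122691, chr7:19020991-19117672, minus strand) were listed at 0 FPKM in all 3 libraries. At the estimated depth, 3 fragments would give 0.143 FPKM for SNAI2 and 0.173 FPKM for TWIST1 in the control. The table does list values of fewer fragments for other genes, so these are limits that a count of 0 allows and not a detection limit.

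CDH1 (ENSG00000039068, chr16:68737225-68835548, plus strand), or E-cadherin, the adhesion molecule of epithelial junctions, was at 47.3 FPKM in control cells, 38.6 FPKM with HKR3 and 44.4 FPKM under the siTERT label. The HKR3 library was the lowest of the 3. The log2 difference was -0.29, with a ratio of 0.816 and a counting interval from 0.745 to 0.893. This was no unusual difference among all genes, since 30.0% of tested genes were at least as low. Scaled to equal FPKM sums it was -0.13 and the ratio 0.909. That scaling moved the median of all tested genes from -0.02 to 0.12, so CDH1 lay below the median of all genes either way. Under the siTERT label the ratio was 0.940, with an interval from 0.861 to 1.02. CDH1 was higher than 89.5% of all genes in the control and 87.9% in the HKR3 library.

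EPCAM (ENSG00000119888, chr2:47345158-47387601, plus strand), an epithelial adhesion molecule that marks hepatic progenitors and many liver carcinomas, was at 71.7, 60.8 and 70.6 FPKM in control, HKR3 and siTERT order. The HKR3 library was again the lowest. Its log2 difference between HKR3 and control was -0.23, with a ratio of 0.848 and an interval from 0.779 to 0.923. Among tested genes 33.9% were at least as low, and with equal FPKM sums the difference was -0.08. Its ratio under the siTERT label was 0.985, with an interval from 0.908 to 1.07. The ratio of EPCAM to CDH1 within a library was 1.52, 1.57 and 1.59 in the same order. A processed pseudogene, AC093840.1, carries 3.65% of the EPCAM sequence.

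CDH2 (ENSG00000170558, chr18:27950966-28177446, minus strand), or N-cadherin, the adhesion molecule of mesenchymal and neural cells that hepatocytes also carry, was at 10.8 FPKM in control cells, 22.3 FPKM with HKR3 and 9.92 FPKM under the siTERT label. It was thus high in the HKR3 library, by a log2 difference of 0.98 and a ratio of 2.07 with an interval from 1.84 to 2.33. A difference at least as high was seen in 5.71% of tested genes. CDH2 came to 1.01 with libraries scaled to equal medians and to 1.13 with equal sums, both over the 2-fold rule. Its ratio under the siTERT label was 0.921, with an interval from 0.804 to 1.06. The FPKM of CDH2 was 0.227 times that of CDH1 in control cells, 0.576 times with HKR3 and 0.223 times under the siTERT label. CDH1 remained the higher of these cadherins in all 3 libraries.

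VIM (ENSG00000026025, chr10:17228259-17237593, plus strand), vimentin, the intermediate filament of mesenchymal cells, was close to the floor, at 0.705 FPKM in control cells, 1.36 FPKM with HKR3 and 0.760 FPKM under the siTERT label. Its mean was below 1 FPKM, so it was outside the tested genes. These values stand for an estimated 14, 29 and 16 fragments. The ratio of HKR3 to control was 1.93, and its interval from 0.978 to 3.91 included 1, so no difference was detectable at this depth. VIM-AS1 and other genes hold 22.8% of the VIM sequence on the opposite strand.

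FN1 (ENSG00000115414, chr2:215360440-215436172, minus strand), fibronectin, a matrix glycoprotein that hepatocytes also secrete into plasma, was the highest of the 10 genes, at 226 FPKM in control cells, 290.3 FPKM with HKR3 and 250.5 FPKM under the siTERT label. Both treated libraries were above the control. The log2 difference was 0.36 in the HKR3 library, with a ratio of 1.29 and an interval from 1.24 to 1.33, and 0.15 in the library labelled siTERT, with a ratio of 1.11 and an interval from 1.07 to 1.15. Among all tested genes 24.9% differed at least as high in the HKR3 library, but among the 533 genes within 2-fold of the mean of FN1 only 44, or 8.26%, did. Under the siTERT label these shares were 21.1% of all tested genes and 11.1% of the 533. FN1 exceeded VIM 320-fold in the control, so these mesenchymal markers stood at opposite ends of the range.

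**Figure D3:**
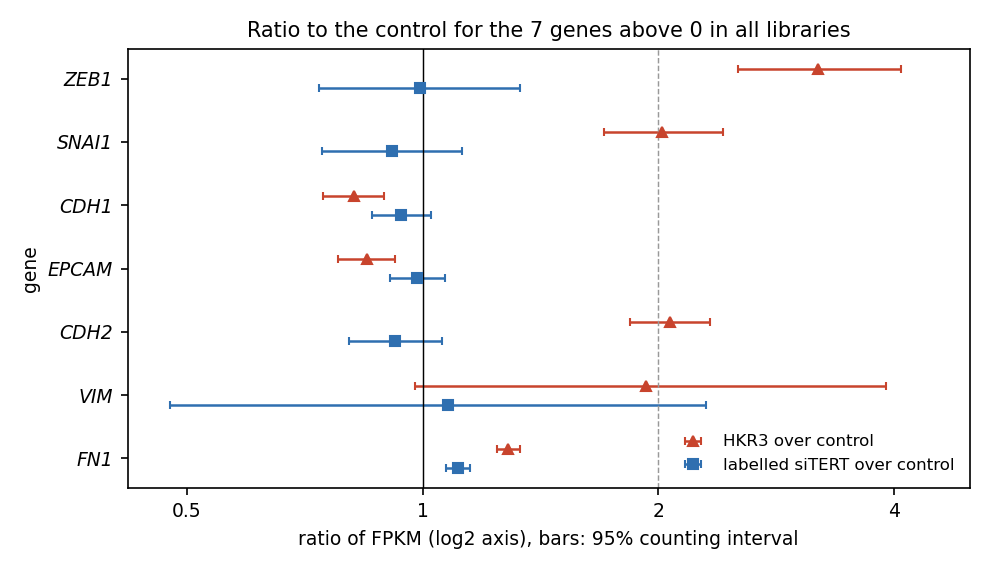
Ratio of FPKM to the control on a log2 axis, with 95% counting intervals, for the 7 genes above 0 in all libraries. ZEB1, SNAI1 and CDH2 in the HKR3 library have intervals from 1.71 upward, CDH1 and EPCAM lie below 1, and VIM has the widest interval.

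Both comparisons above share the control library. Set directly against the library labelled siTERT instead, the HKR3 library, which is itself shared, gave 1.39 for ZEB1, 1.07 for SNAI1 and 1.09 for CDH2 in log2. These 3 passed the 2-fold rule there, where 4.11% of tested genes were at least 2-fold higher, 1.38% lower and 5.49% either way. CDH1 was at -0.20, EPCAM at -0.21 and FN1 at 0.21. The order of the levels of the expressed genes in the control was FN1, EPCAM, CDH1, SNAI1, CDH2, ZEB1 and VIM. SNAI1 and CDH2, at 10.95 and 10.8 FPKM, were nearly equal, with no replicate spread to order them by, and in the HKR3 library CDH2 stood just above SNAI1.

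**Figure D4:**
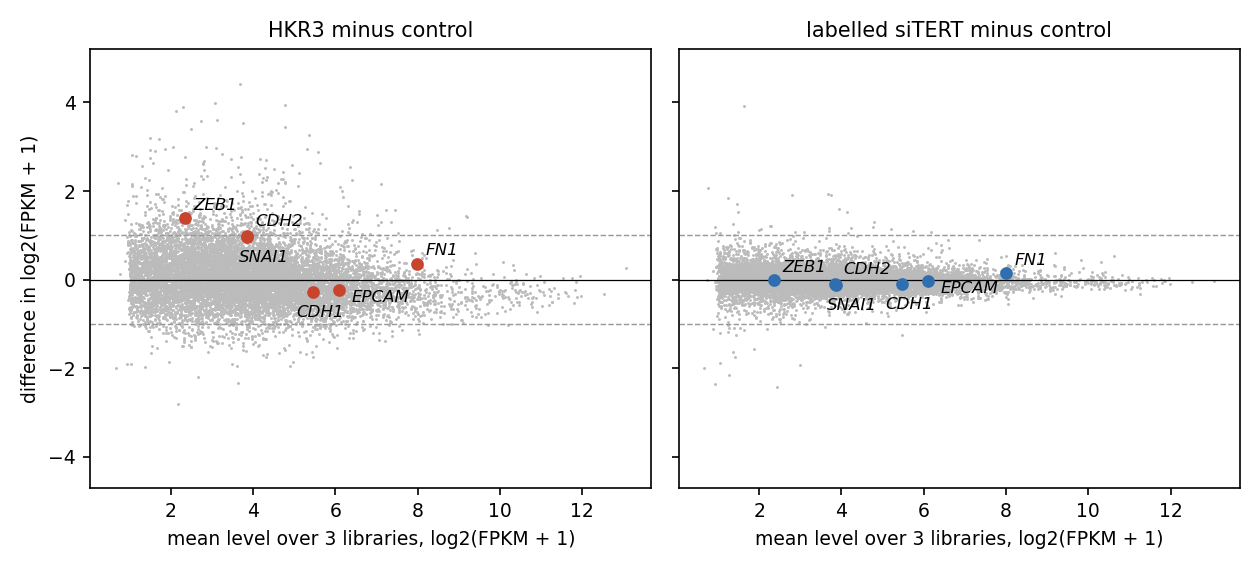
Difference in log2(FPKM + 1) from the control against the mean level, for all tested genes in grey and the 6 tested EMT genes in colour, with ZBTB48 left out and dashed lines at 2-fold. ZEB1 lies above the 2-fold line in the HKR3 library, with CDH2 and SNAI1 just under it, and all 6 lie near 0 in the library labelled siTERT.

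The 5 tested genes whose values over the 3 libraries were nearest to those of ZEB1, by Euclidean distance of the centred log2(FPKM + 1), were EPM2AIP1, IKZF5, ZIC2, FOXN2 and MAP3K1. IKZF5, a zinc finger protein of the Ikaros family, was at 3.65, 11.4 and 3.58 FPKM in the control, HKR3 and siTERT libraries. MAP3K1, a kinase upstream of JNK and ERK signalling, was at 3.35, 10.1 and 3.40 FPKM. With 3 libraries many genes can share such a pattern.

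Further genes of the pathway were read from 13 lists, chosen by function with earlier results of these data known. Beside them, the tested genes together had a median of -0.02 for HKR3 minus control, with 48.6% above 0. Of all tested genes 5.52% were at least 2-fold higher and 2.52% lower, the shares to set beside the list counts below. Of 21 further EMT transcription factors, 10 were tested, with 3 at least 2-fold higher, 0 lower and a median of 0.10. Pairs of levels below are FPKM in the control and then in the HKR3 library. ZNF281, a zinc finger protein linked to SNAI1 activity, was at 18.0 and 63.9 FPKM. FOXC1, a forkhead factor of mesenchyme, was at 1.17 and 5.72 FPKM, and FOSL1, an AP-1 subunit, was at 3.37 and 11.1 FPKM. HMGA2, a chromatin protein of fetal and tumour cells, went the other way, at 91.5 and 46.4 FPKM, a log2 difference of -0.96. Regulators that maintain the epithelial state also held 3 genes at least 2-fold higher of 10 tested, with a median of 0.36, but 5 were above 0 and 5 below. Those 3 were the ETS factor ELF3, at 16.6 and 74.5 FPKM, KLF5, at 53.3 and 137 FPKM, and the liver factor FOXA2, at 30.4 and 65.0 FPKM. Among the 5 below the control were the splicing regulator ESRP2, at a log2 difference of -0.73, and the epithelial zinc finger repressor OVOL2, at -0.42, named after their values were seen. Genes 2-fold higher were thus found in both of these lists.

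Corepressors that SNAI and ZEB proteins recruit were tested for all 20 listed genes, with 0 past 2-fold and a median of 0.04. AJUBA, a LIM protein that binds SNAI1, was nearest to the limit, at 87.9 and 165 FPKM. Regulators of the stability of SNAI, ZEB and TWIST proteins, kinases and ubiquitin ligases among them, had a median of 0.44. Of these, 2 of 13 were at least 2-fold higher and 10 were above 0. SIAH1, a ubiquitin ligase, was at 16.6 and 46.5 FPKM, and FBXW7, a substrate adaptor of ubiquitin ligases, was at 3.70 and 8.77 FPKM. Signals that induce EMT and their receptors had a median of 0.33, with 16 of 19 above 0, 4 at least 2-fold higher and 1 lower. The receptor FGFR1, at 27.4 and 11.7 FPKM, was the lower one, named after its values were seen. The ligand TGFB2 was at 2.25 and 14.6 FPKM, and the ligand BMP4 was at 9.24 and 26.1 FPKM. SMAD3, a transducer of TGF-beta signals, was at 8.25 and 25.5 FPKM, and its feedback inhibitor SMAD7 at 6.18 and 17.7 FPKM.

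Junction genes were not lower as lists. Of 26 tight junction and polarity genes, 23 were tested, with 2 at least 2-fold higher, 1 lower and a median of 0.20. OCLN, occludin, was at 13.1 and 44.2 FPKM and PARD6B, of the PAR polarity complex, at 5.57 and 21.6 FPKM, while the pore-forming claudin CLDN2 was at 10.2 and 3.28 FPKM. Desmosomal genes had a median of 0.24 with 0 of 7 past 2-fold. The cadherin-catenin complex and nectins had a median of 0.24, with 1 of 16 at least 2-fold higher and 1 lower. CBLL1, the ubiquitin ligase Hakai that targets E-cadherin, was at 14.3 and 33.5 FPKM. MGAT5, a glycosyltransferase that modifies cadherins and integrins, was at 28.0 and 12.5 FPKM. Of 20 other cadherins 3 were tested and 0 passed 2-fold, and the intestinal cadherin CDH17 was highest, at 29.7 and 36.4 FPKM.

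Markers of the mesenchymal state were not higher as a list. Of 39 mesenchymal markers and matrix proteases, 15 were tested, with 4 above 0, 0 past 2-fold and a median of -0.34, which stayed below 0 at -0.19 with equal FPKM sums. LOX, which crosslinks collagen, was at 39.0 and 21.8 FPKM and COL5A2, a fibrillar collagen, at 61.1 and 38.9 FPKM. Fibronectin receptors and matrix assembly genes went both ways, with 3 of 15 at least 2-fold higher and 1 lower, and a median of -0.02 that turned to 0.12 with equal sums. THBS1, thrombospondin, was at 3.38 and 30.04 FPKM and SDC4, a co-receptor for fibronectin, at 56.6 and 140.02 FPKM. ITGA5, which with ITGB1 forms the main fibronectin receptor, was at 3.36 and 1.01 FPKM. Keratins and other intermediate filaments had a median of 0.11 with 0 of 10 past 2-fold. KRT23 was nearest to the limit, at 13.7 and 27.7 FPKM, a log2 difference of 0.96. KRT18, a hepatocyte keratin, was at 794 and 863 FPKM. Partners and relatives of EpCAM had a median of -0.08 that turned to 0.07 with equal sums, with 0 of 12 past 2-fold. Of these 12 genes, 5 lay above the control and 7 below. The claudin CLDN7 had the largest difference, at 1.96 and 4.03 FPKM, a log2 difference of 0.76. PROM1, a progenitor marker also called CD133, went the other way, at 48.1 and 29.5 FPKM, a log2 difference of -0.69.

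**Figure D5:**
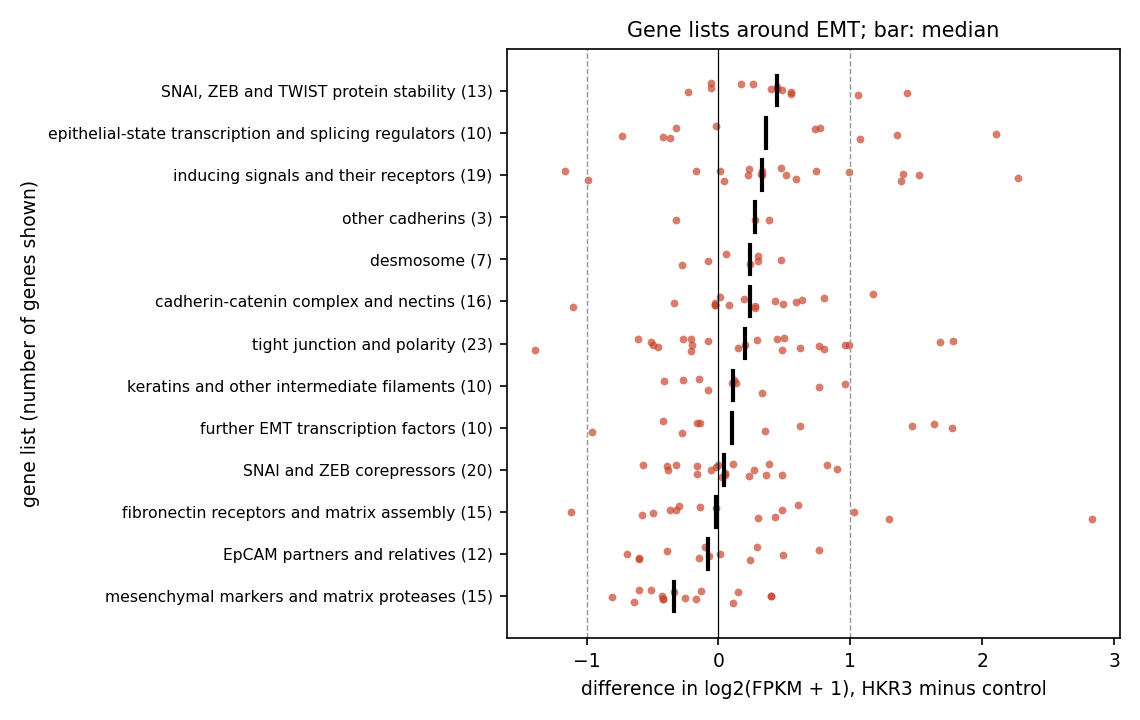
Difference in log2(FPKM + 1) between the HKR3 library and the control for the tested genes of 13 lists, with 1 point per gene, a bar at the median and dashed lines at 2-fold. The mesenchymal list has the lowest median, -0.34, and the list on protein stability the highest, 0.44. Small medians turn sign with equal sums for the EpCAM and fibronectin lists.

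Markers of other cells were read beside these values. Fibroblast markers summed to 1.01, 0.761 and 0.959 FPKM in control, HKR3 and siTERT order, with 0 of 9 reaching a mean of 1 FPKM and DCN, POSTN and THY1 at 0 throughout. The 5 endothelial markers and the leukocyte marker PTPRC were listed at 0 in all libraries. The immune list summed to 431, 243 and 441 FPKM, most of it LYZ, at 392, 210.3 and 392 FPKM. This sum was lower in the HKR3 library, and its part in the results was not tested. The other tested immune markers were CD68, at 32.7, 29.4 and 44.1 FPKM, and CD14, at 6.20, 3.13 and 4.82 FPKM in the same order. CSF1R and CD3E were also listed at 0. The biliary list summed to 55.8, 52.0 and 58.4 FPKM, with SOX9 making up most of it and KRT7 at 0. The other tested biliary marker, KRT19, was higher in both treated libraries, at 1.78, 3.71 and 3.69 FPKM in the same order. In bulk RNA a higher level in some cells and a higher level in all cells cannot be told apart.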

How the data were processed

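The deposited table holds FPKM per gene as the authors calculated it, with 1 library per group. The build hg19 and the tools Cuffdiff 2.2.1, Cufflinks and STAR 2.5.0 are named in the submitters' processing notes. Settings, use of strand and any scaling between libraries are not given in the sources used. Symbols were matched for all 10 genes. Differences were computed in log2(FPKM + 1) over genes averaging 1 FPKM or more, with Python 3.11.15, numpy 2.4.6, pandas 2.3.3 and scipy 1.17.1. The code was checked on simulated data with little noise and planted changes far larger than 2-fold. That check cannot show how well differences near the 2-fold rule are recovered. With 1 library per group no test was possible, and a 2-fold size rule was used. Named genes were the 10 genes, ZBTB48, TERT, up to 4 genes per list with the largest difference from the control, the cell type markers and the 5 genes nearest to any of the 10 past 2-fold. Fragment numbers were estimated from the FPKM worth of 1 fragment in low genes that have a single transcript, from the 64 of 96, 63 of 115 and 72 of 105 such genes in the control, HKR3 and siTERT libraries that lay within 25% of a common value. The search for that common value began from the same preset starting value in every library, and its dependence on that start was not tested. Counting intervals used the shortest coding transcript. If the authors scaled FPKM further, these are scaled sizes and not depths. Alternatives were pseudocounts of 0.1 and 5 FPKM, no filter, a mean of at least 5 FPKM, and libraries scaled to the control's FPKM sum or to equal medians. The genes and lists were chosen with earlier results of these data known. Coordinates are GRCh38, not the hg19 of the deposited values.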

Additional observations from a re-analysis of the deposited data

How the results depend on the processing

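No paired analysis was possible because each group holds 1 library, and leaving out a library was not possible for the same reason. Of the EMT genes, the number at least 2-fold higher in HKR3 than in the control was 1 (ZEB1) as reported. It was 3 with a pseudocount of 0.1 FPKM and 3 with equal FPKM sums (ZEB1, SNAI1 and CDH2 in both), 2 with equal medians (ZEB1 and CDH2), and 0 with a pseudocount of 5 FPKM or a mean of at least 5 FPKM, which ZEB1 does not reach. Against the library labelled siTERT it was 3, and 0 with a pseudocount of 5 FPKM. Of 108 recomputed differences of these genes, 3 changed sign, those of ZEB1 and EPCAM near 0 in the library labelled siTERT. Over all genes, HKR3 against control gave 606 higher and 277 lower, or 68.6% higher. It gave 860 and 167, or 83.7% higher, with equal sums, 238 and 93 with a pseudocount of 5 FPKM, and 488 lower with a pseudocount of 0.1 FPKM. The library labelled siTERT gave 31 higher and 22 lower, 103 and 57 with a pseudocount of 0.1 FPKM, 10 and 3 with one of 5 FPKM, 17 and 5 with a mean of at least 5 FPKM, and 37 lower without a filter. HKR3 against the library labelled siTERT gave 451 higher and 151 lower, 169 and 34 with a pseudocount of 5 FPKM, 323 lower with one of 0.1 FPKM, and 599 and 102, or 85.4% higher in place of 74.9%, with equal sums. A larger pseudocount shrinks differences by construction. Of 234 recomputed list medians, 8 changed sign. Depth limits VIM, whose ratio rests on an estimated 14 to 29 fragments a library, and the genes listed at 0.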

Other observations

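Under the siTERT label 0 tested genes of the 13 lists passed 2-fold, where only 0.483% of all tested genes did so in either direction. The list differences under this label are given here beside those of the HKR3 library. Both are differences from the same control library, so they are not independent. All tested genes had a median of -0.01 under the siTERT label, with 47.4% above 0. The mesenchymal list had a median of 0.22, with 12 of 15 above 0, against -0.34 in the HKR3 library. S100A4, a calcium-binding protein of motile cells, was at 13.9 FPKM in control cells, 10.8 FPKM with HKR3 and 22.3 FPKM under the siTERT label. COL5A2 went the other way, at 61.1 FPKM in control cells and 40.9 FPKM under the siTERT label, a log2 difference of -0.57. It was 1 of the 3 tested genes of the mesenchymal list below the control under that label. The epithelial regulators had a median of 0.19, with 8 of 10 above 0, and ELF3 and KLF5 were at 28.6 and 85.8 FPKM there. SMAD7 was at 12.8 FPKM, a log2 difference of 0.94 from the control. KRT19, a keratin of biliary and progenitor cells, was at 1.78 FPKM in control cells, 3.71 FPKM with HKR3 and 3.69 FPKM under the siTERT label. KRT18 was at 1087 FPKM in the library labelled siTERT, above its 863 FPKM in the HKR3 library.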
